A study of Mus musculus with 12 samples.

Results

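Transcript levels in mouse dendritic cells (DC) exposed to poly(I:C) for 3 h were compared with those in cells taken just before exposure, at 0 h. Poly(I:C) is a made double-stranded RNA that stands in for viral RNA. The comparison rests on 4 of the 12 arrays of the series, those titled 3 h and 0 h, and each 3 h array was paired with the 0 h array that carries its replicate number. The other 8 arrays hold cells at 1, 6, 12 and 24 h, and they entered the fit to share its estimate of spread. All cells were from C57BL/6 mice with no engineered allele named in the labels. Both groups were cultured from bone marrow for 6 days in GM-CSF, the growth factor that drives marrow precursors towards DC, at 10 ng/ml by the labels. The 3 h group then received poly(I:C) at 2.5 ug/ml by the labels, while the study's methods give higher doses of both agents. The age of the mice is given as 3 to 4 months in 1 label and as 8 to 10 weeks in another. By the study's methods, the marrow of 1 mouse made all the cells of 1 experiment, the cells were selected for CD11c, and the 2 experiments were run months apart. The unit of replication is therefore the experiment, n = 2, which sets how precise any value here can be. No array holds cells kept for 3 h without poly(I:C), so the effects of poly(I:C) and of 3 h in culture cannot be told apart.

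Double-stranded RNA is a product of viral replication. Cells sense it through Toll-like receptor 3 in endosomes and through RIG-I and MDA5 in the cytosol, and these sensors lead to interferon regulatory factors (IRF) and to NF-kB. The type I interferons made in response act back on the cells through their receptor, and a complex of STAT and IRF9 proteins then switches on antiviral genes at a DNA site called the interferon-stimulated response element. In DC the same stimulus starts maturation, the program in which the cells present antigen, display co-stimulatory ligands and secrete cytokines for T cells.

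Each value below is a signal in the units of the MAS5.0 software, as the authors deposited it. Where a pair of signals is given, the first is from experiment 1 and the second from experiment 2, and "before" means 0 h. Signals of different probe sets are not on a common scale of abundance, so that each is compared with itself over time. Log2 fold changes are those of 3 h over 0 h from the fit on log2(signal + 16), which understates the change of dim genes, and they are given with their SE. The median signal of the 4 arrays was 77.8 to 86.3, and 19.7% to 21.3% of the signals on an array were below 16, the constant added before taking log2. The summed signal of 14 DC markers was 122420 to 143996 at 0 h and 127012 to 148863 at 3 h, and 0 of the 12 markers tested were called in either direction. Itgax, which encodes CD11c, had signals of 18779.5 and 18932 before and 18281 and 18836 after 3 h. The 9 macrophage markers summed to 62295 and 66102 at 0 h and to 64172 and 70776 at 3 h, with 0 of 9 called. The 5 T cell markers, at 179 to 261 in sum over the 4 arrays, and the 7 markers of mast cells, basophils and eosinophils, at 106 to 185, were all below the filter on low signals. The 6 NK cell markers summed to 240.0 to 284 at 0 h and to 462 to 469 at 3 h, and 1 of them, Klrk1, was called higher. The 7 markers of plasmacytoid DC summed to 1275 and 1101 at 0 h and to 2572 and 1335 at 3 h, with 0 of 4 called. The part of these shifts in the results below was not tested. Lists for neutrophils, B cells and erythroid cells had 0 called of 2, 2 and 1 genes tested. These are bulk cells, so fewer cells with a transcript and less of it per cell cannot be told apart.

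In the fit to all 12 arrays, far more genes were called higher after 3 h of poly(I:C) than lower. With limma and an adjusted p under 0.05, 228 of the 22519 probe sets tested were higher after 3 h (1.01%) and 10 were lower (0.0444%). Counted as genes, with 1 probe set each, 138 of 10985 rose (1.26%) and 6 fell (0.0546%). Of the 138 genes, 132 rose at least 2-fold, 74 at least 4-fold and 15 at least 16-fold. Their median signal was 549 at 0 h and 2816 at 3 h, so that 109 of them were above 1000 at 3 h against 40 at 0 h. These genes were chosen as higher at 3 h, so a shift in this direction follows from the choice. The median log2 fold change of all genes tested was -0.06. At an unadjusted p under 0.05, 516 genes were higher and 349 lower. The balance of rises and falls depended on the arrays that set the spread. With the arrays of 0 to 6 h alone, 550 probe sets were higher and 217 lower, and with only the 4 arrays compared, 991 were higher and 922 lower.

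Both experiments gave the rises, and experiment 1 gave the larger ones. All 228 probe sets had the same direction in both, and in 227 of them the 0 h and 3 h signals did not overlap. They were called on these same arrays, so neither count is separate support for the rises. The median log2 ratio of the 138 genes was 2.36 in experiment 1 and 1.72 in experiment 2, and 115 of the 138 had the larger ratio in experiment 1. Il15, the cytokine that sustains NK cells and memory T cells, was among the most uneven, with signals of 80.6 and 164 before and 1446 and 505 after 3 h and log2 ratios of 3.92 and 1.53. Mx1, in contrast, had the larger ratio in experiment 2 (3.93 and 4.60). Over all 45037 non-control probe sets, 3116 were at least 2-fold higher in experiment 1 and 3386 in experiment 2, but 695 were so in both. At least 2-fold lower were 2224 and 2363, with 281 in both, and 448 moved 2-fold in opposite directions. At 4-fold the 2 experiments shared 100 probe sets that were higher and 3 that were lower, and 1 moved in opposite directions.

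**Figure D1:**
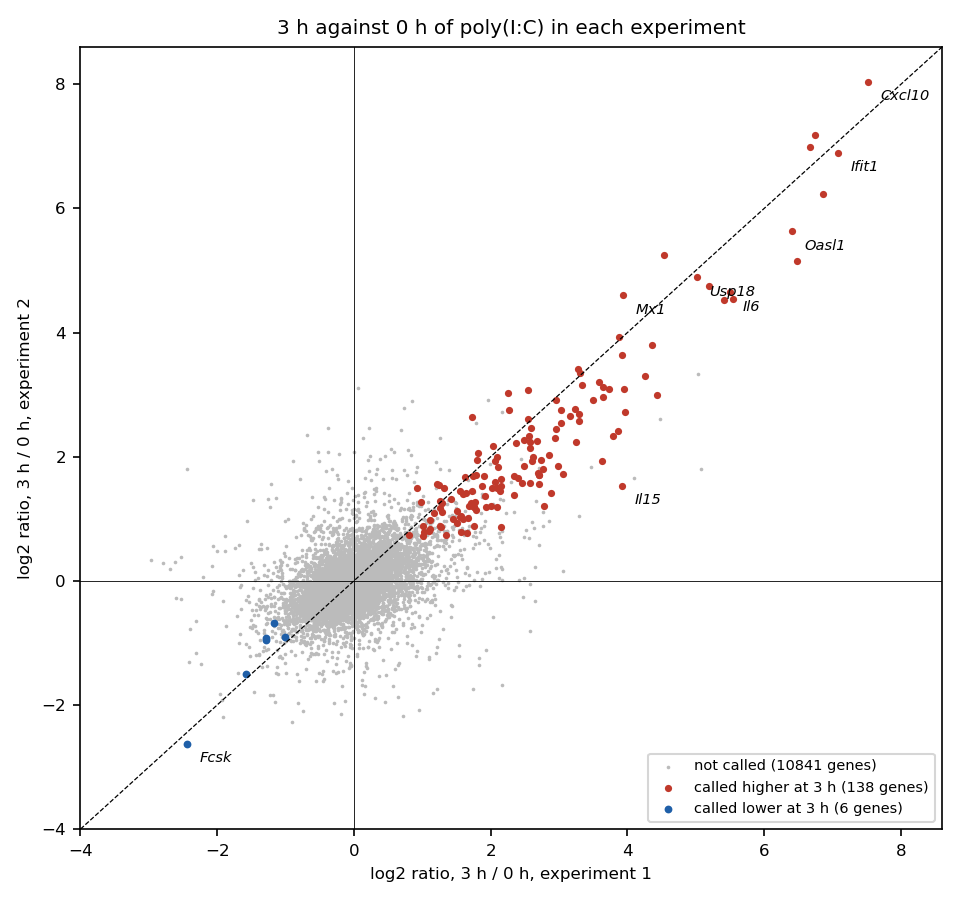
Log2 ratio of 3 h over 0 h in experiment 1 (x axis) and experiment 2 (y axis) for the 10985 genes tested, 1 point per gene; red, called higher by limma; blue, called lower; dashed, equal ratios. The 138 red points lie in the upper right quadrant, mostly to the right of the dashed line, and reach from Snx10 at 0.77 to Cxcl10 at 7.78 on average.

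The counts depended on single arrays. Without the 3 h array of experiment 1 the number of probe sets called higher was 98, without the 3 h array of experiment 2 it was 150, and without the 0 h array of experiment 1 it was 117. Without either 24 h array it was 431 or 428, and these included all 228. With no term for the experiment it was 88.

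The largest rise was that of Cxcl10, the chemokine that draws CXCR3-bearing T cells and NK cells. Its signals were 96.8 and 61.3 before and 20569 and 20371 after 3 h (log2 fold change 7.78, SE 0.43, adjusted p = 7.44e-06). Ifit1 and Ifit2, interferon-induced proteins that bind foreign RNA or block its translation, came next. Ifit1 had signals of 84.1 and 83.5 before and 13477 and 11869 after 3 h (log2 fold change 6.99, SE 0.27, adjusted p = 1.1e-06). Ifit2 had signals of 123 and 44.8 before and 14772 and 8822 after 3 h (log2 fold change 6.96, SE 0.33, adjusted p = 4.16e-06), and its experiments were further apart than those of Ifit1 at both times. The gene for viperin, Rsad2, an enzyme that makes a chain-terminating nucleotide, had signals of 243 and 193 before and 26337 and 26649.8 after 3 h (log2 fold change 6.83, SE 0.38, adjusted p = 8.05e-06). For these 4 genes every signal after 3 h was far above every signal before. Cmpk2, a mitochondrial nucleotide kinase encoded beside Rsad2, had signals of 114 and 116 before and 15065 and 9964 after 3 h (log2 fold change 6.55, SE 0.26, adjusted p = 1.28e-06). Oasl1, a protein related to the 2'-5' oligoadenylate synthetases, had signals of 131 and 87.4 before and 12469.6 and 5110.4 after 3 h (log2 fold change 6.02, SE 0.30, adjusted p = 4.4e-06).

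Further large rises were those of antiviral genes, of cytokines and of an activation antigen. Mx2, a dynamin-like GTPase that traps viral particles, had signals below the added constant at 0 h, with 6.65 and 12.0 before and 1999.8 and 983 after 3 h (log2 fold change 5.82, SE 0.33, adjusted p = 8.51e-06). Il6, the inflammatory cytokine, had signals of 49.9 and 5.23 before and 2969.8 and 515 after 3 h (log2 fold change 5.07, SE 0.40, adjusted p = 8.21e-05), so that experiment 1 was the higher one at both times, but the groups did not overlap. Cd69, an early activation antigen that holds cells back from leaving lymphoid tissue, had signals of 312 and 308 before and 11987 and 8682 after 3 h (log2 fold change 4.97, SE 0.38, adjusted p = 6.37e-05). Usp18, a protease that removes ISG15 and damps the type I interferon receptor, had the smallest adjusted p of all genes, with signals of 238 and 223 before and 8225 and 7108 after 3 h (log2 fold change 4.96, SE 0.17, adjusted p = 9.4e-07). Rtp4, an interferon-induced protein that binds viral RNA, had signals of 291 and 118 before and 7112 and 5067 after 3 h (log2 fold change 4.89, SE 0.32, adjusted p = 2.66e-05). Ccl5, a chemokine for T cells and monocytes, had signals of 1129 and 921 before and 16876 and 14249 after 3 h (log2 fold change 3.91, SE 0.36, adjusted p = 0.000233). Il12b, the subunit that IL-12 and IL-23 share, had signals of 50.2 and 50.5 before and 1414 and 513 after 3 h (log2 fold change 3.71, SE 0.62, adjusted p = 0.0162). Among the 25 genes with the largest rises were also Ifit3, Ifit1bl1, Mx1, Ifih1, Slfn8, Oasl2, Sp110, Slfn5, Ifi209, Irgm1, Irgm2 and Gm9706, with log2 fold changes from 3.34 (Gm9706) to 5.04 (Ifit3). Probe sets with several gene symbols or none were left out of this ranking. Some of these were also called higher, with log2 fold changes of 4.64, 4.09, 4.05 and 3.43 for the largest. Of the 25, 22 were also called without each of the 12 arrays in turn, and Il12b, Sp110 and Irgm2 were not.

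**Figure D2:**
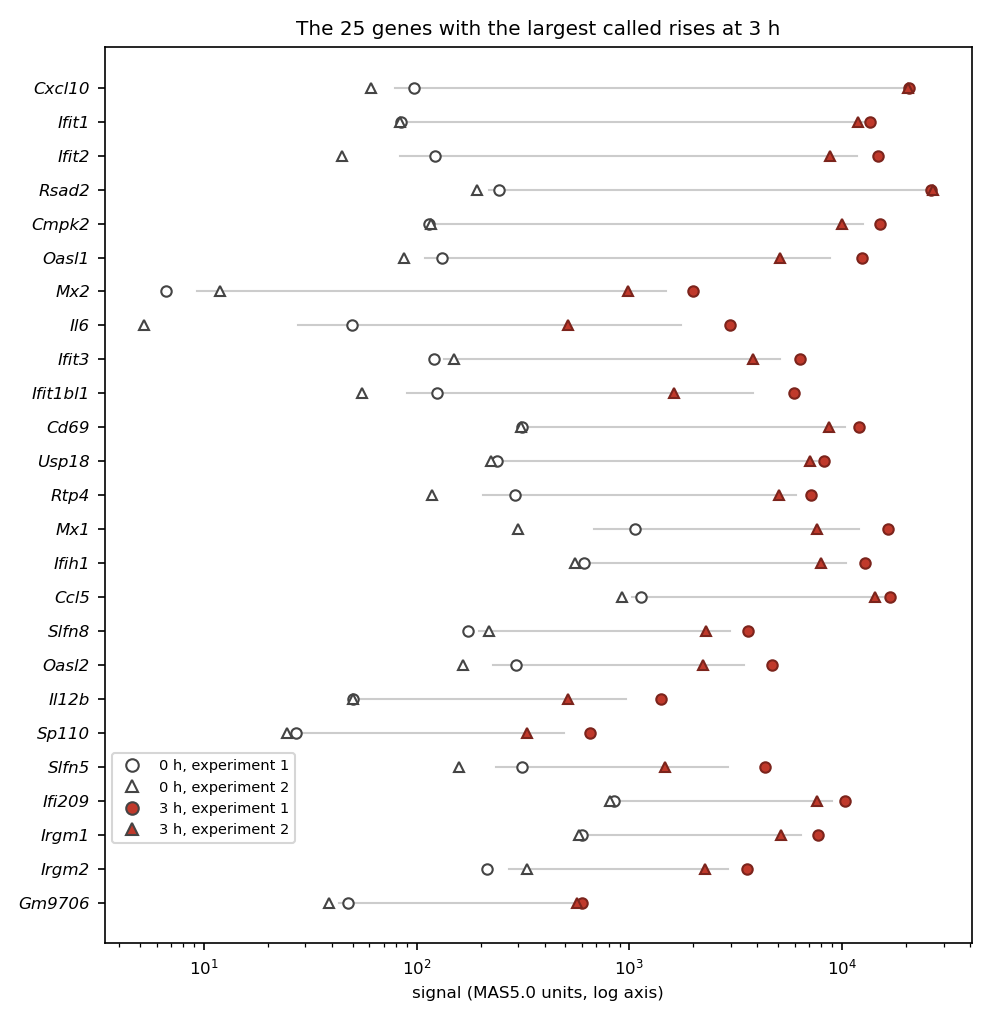
Signal (log axis, MAS5.0 units) of the 25 genes with the largest rises; open symbols, 0 h; red symbols, 3 h; circles, experiment 1; triangles, experiment 2; grey lines join the means. In each row both red symbols lie to the right of both open ones, and the distance is largest for Cxcl10 (7.78 on the log2 scale).

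To show the sequence before some of these genes, stretches of 100 bases were read upstream of their start sites from the RefSeq promoter table (build GRCm38.p6). Capitals mark each match to the core of the interferon-stimulated response element, written GAAANNGAAA, or TTTCNNTTTC where it lies on the other strand. The 5 genes are those with the largest rises that hold a match before the start. The sequences run 5' to 3' along the gene's strand:
Cxcl10 (chr5:92349040-92349139, minus strand): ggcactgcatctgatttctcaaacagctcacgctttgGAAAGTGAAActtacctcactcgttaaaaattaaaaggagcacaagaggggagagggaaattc
Ifit1 (chr19:34640759-34640858, plus strand): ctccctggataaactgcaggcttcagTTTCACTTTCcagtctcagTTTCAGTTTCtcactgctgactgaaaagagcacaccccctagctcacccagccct
Rsad2 (chr12:26456518-26456617, minus strand): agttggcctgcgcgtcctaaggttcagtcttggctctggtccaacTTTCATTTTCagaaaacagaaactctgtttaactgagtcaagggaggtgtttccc
Ifit3 (chr19:34583362-34583461, plus strand): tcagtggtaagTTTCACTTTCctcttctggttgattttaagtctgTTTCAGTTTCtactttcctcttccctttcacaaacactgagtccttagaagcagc
Ifit1bl1 (chr19:34602018-34602117, minus strand): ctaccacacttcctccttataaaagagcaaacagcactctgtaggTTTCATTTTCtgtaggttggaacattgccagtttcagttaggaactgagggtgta
The match in the Cxcl10 stretch begins 213 bases before the start, and those of Ifit1 and Ifit3 shown here include a pair each. The Ifit1 stretch overlaps the sequence before Ifit1bl2, which is read from the other strand. In the window of 250 bases before to 50 after the start, the core was present in 32 of the 110 genes called higher that have a promoter in the table (29.1%). It was present in 345 of the 8945 genes tested with a promoter (3.86%) and in 1070 of all 26742 genes of the table (4.00%). Of the 25 genes with the largest rises, 18 have a promoter in the table and 10 hold the core. An NF-kB core, GGGNNTTTCC or GGAAANNCCC on the other strand, was in 3 of the 110 promoters (2.73%) against 2.07% of the genes tested. By list, the interferon core was in 5 of 7 genes of the IFIT list, in 6 of 7 interferon-inducible GTPases, in 3 of 5 OAS genes, and in 0 of 5 genes of ISG15 conjugation. It was also in 3 of 16 cytosolic ribosomal protein genes (18.8%), a list with 0 called. The NF-kB core was in 3 of 10 inflammatory cytokines and in 3 of 6 CXC chemokines. The interferon core was in none of the 4 promoters of genes that fell. A match says that these letters stand in the window, and no more.

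The sensors of double-stranded RNA were themselves among the genes that rose. Of 15 sensors and adaptors tested, 6 rose and 0 fell, with a median log2 fold change of 1.22 against -0.06 for all genes tested. Ifih1, which encodes MDA5, rose most, with signals of 613 and 559 before and 12873 and 8008 after 3 h (log2 fold change 4.08, SE 0.20, adjusted p = 4.4e-06). Ddx58, which encodes RIG-I, had signals of 588 and 679 before and 3358 and 3341 after 3 h (log2 fold change 2.38, SE 0.17, adjusted p = 3.4e-05), and the experiments ended at nearly the same level. Dhx58, which encodes LGP2, a regulator of both, had signals of 211 and 318 before and 1469 and 965 after 3 h (log2 fold change 2.13, SE 0.27, adjusted p = 0.00242). The DNA sensor Cgas had signals of 421 and 621 before and 1629 and 1630.1 after 3 h (log2 fold change 1.64, SE 0.21, adjusted p = 0.00278). Oas1a (log2 fold change 1.31) and Trim25, a ligase that activates RIG-I (1.22), also rose. Of these 6 genes, 2 were called without each array in turn. Tlr3, the endosomal sensor, did not pass, and its experiments differed, with signals of 114 and 185 before and 420.1 and 186 after 3 h (log2 fold change 0.88, SE 0.41, adjusted p = 0.7). Eif2ak2, the kinase PKR, had a log2 fold change of 1.24 ± 0.34 and an adjusted p of 0.23. The adaptors were not called, with log2 fold changes of -0.66 ± 0.28 for Mavs and -0.31 ± 0.28 for Ticam1, the adaptors of the RIG-I-like receptors and of TLR3. None of 15 genes of other Toll-like receptors passed, with a median of 0.23 and values from -0.05 (Tirap) to 0.65 (Myd88).

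None of the kinases and adaptors between the sensors and the transcription factors was called, and Irf7, Irf1, Irf9 and Stat2 rose. Of 19 signaling nodes, 0 passed, where 1.26% of all genes tested rose and 0.0546% fell, so this count does not set them apart. Their log2 fold changes ran from -0.53 to 0.81 with a median of 0.30. The largest was that of Irak2, a kinase of Toll-like receptor signaling (0.81 ± 0.19, adjusted p = 0.105). The smallest adjusted p was that of Tnfaip3, the NF-kB inhibitor A20 (0.74 ± 0.16, adjusted p = 0.0619). Of 12 NF-kB subunits and IkB proteins, 1 rose and the median was 0.49. It was Nfkbiz, a nuclear IkB protein needed for secondary NF-kB targets, with signals of 376 and 205 before and 1316 and 515 after 3 h (log2 fold change 1.51, SE 0.22, adjusted p = 0.0061). Nfkbia, the classical inhibitor, had signals of 15058 and 18779.6 before and 21535 and 24872 after 3 h and was not called (log2 fold change 0.46, SE 0.24, adjusted p = 0.788). Of 9 interferon regulatory factors and partners, 4 rose and the median was 0.62. Irf7, the factor that extends the interferon response, had signals of 284 and 196 before and 2958 and 2139 after 3 h (log2 fold change 3.33, SE 0.31, adjusted p = 0.000304). Irf1 had signals of 956 and 723 before and 7471 and 3639 after 3 h (log2 fold change 2.63, SE 0.28, adjusted p = 0.000638). Irf9, the DNA-binding partner of the STAT proteins, had signals of 767 and 579 before and 2389.5 and 1881 after 3 h (log2 fold change 1.65, SE 0.18, adjusted p = 0.000927), and Batf2 had a log2 fold change of 1.99. Irf3, which is activated as a protein by the sensors, had signals of 904 and 1244 before and 799 and 1132 after 3 h and a log2 fold change of -0.15 ± 0.22. Of 6 STAT factors, 1 rose and the median was 0.25. It was Stat2, with signals of 513 and 405 before and 3163 and 2290.4 after 3 h (log2 fold change 2.52, SE 0.17, adjusted p = 2.92e-05).

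Type I interferon transcripts themselves were not called at 3 h. Of 14 interferon, receptor and Janus kinase genes, 1 passed, the interleukin-10 receptor chain Il10ra (log2 fold change 1.17, SE 0.23, adjusted p = 0.0425), and the median log2 fold change was 0.24. Ifnb1, the first interferon made in most cells, had signals of 32.6 and 48.4 before and 522 and 213 after 3 h. The 3 h signals were above those at 0 h in both experiments, but the spread was wide (log2 fold change 2.65, SE 0.89, adjusted p = 0.409). Ifna4 had signals of 4.95 and 3.42 before and 50.0 and 6.75 after 3 h (log2 fold change 0.94, SE 0.59, adjusted p = 0.877), with 3 of the 4 arrays below 10.

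Of 12 feedback inhibitors of cytokine signaling, 2 rose. Beside Usp18 this was Socs1, which blocks Janus kinases, with signals of 274 and 473 before and 1881 and 1577 after 3 h (log2 fold change 2.21, SE 0.32, adjusted p = 0.0058). Socs3, with signals of 1626 and 3685 before and 5471 and 6061 after 3 h, did not pass (log2 fold change 1.23, SE 0.48, adjusted p = 0.57). The median of the list was 0.03.

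The families of antiviral effectors held the highest shares of genes that rose. All 7 tested genes of the IFIT list, which includes Rsad2 and Cmpk2, rose, with a median log2 fold change of 6.55. Of 12 interferon-inducible GTPases, which attack viral and vacuolar membranes, 11 rose with a median of 2.73. Examples are Irgm1, with signals of 600.3 and 581 before and 7676 and 5176 after 3 h (log2 fold change 3.38, SE 0.17, adjusted p = 4.4e-06), Ifi47, with 616 and 496 before and 6334 and 4533 after 3 h (log2 fold change 3.24, SE 0.17, adjusted p = 5.77e-06), and Gbp3, with 571 and 540.5 before and 3584 and 2193 after 3 h (log2 fold change 2.30, SE 0.18, adjusted p = 7.53e-05). Gbp8 was the member not called, with signals of 96.3 and 91.0 before and 265 and 111 after 3 h (log2 fold change 0.78, SE 0.34, adjusted p = 0.645). Of 7 genes of the OAS family, which holds the synthetases of the messenger that activates RNase L and their relatives such as Oasl1, 6 rose with a median of 2.29, from Oas1a at 1.31 to Oasl1 at 6.02, and Oas1c, at 0.43, was not called. Of 8 Schlafen genes, which limit translation or cell growth, 7 rose with a median of 2.64. Slfn8 had signals of 175 and 219 before and 3625 and 2303 after 3 h (log2 fold change 3.78, SE 0.33, adjusted p = 0.000171), while Slfn2, with the smallest rise among the 7, had 7645 and 8513 before and 16405 and 14920.4 after 3 h (log2 fold change 0.95, SE 0.15, adjusted p = 0.0133). Of 6 genes of the ISG15 conjugation system, 5 rose with a median of 1.28, Usp18 among them. The 6 do not include Isg15 itself. Herc6, a ligase, had signals of 478 and 368 before and 2491 and 1227 after 3 h (log2 fold change 2.02, SE 0.20, adjusted p = 0.000476), and the conjugating enzyme Ube2l6 had 158 and 148 before and 399.9 and 385 after 3 h (log2 fold change 1.27, SE 0.19, adjusted p = 0.00751). Without each array in turn, 6 of the 7 genes of the IFIT list that rose were always called, 8 of 11 GTPases, 3 of 6 OAS genes, 3 of 7 Schlafen genes and 2 of 5 genes of ISG15 conjugation. With no term for the experiment these were 6, 8, 3, 2 and 2.

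Wider families rose in part. Of 26 antiviral restriction factors, 10 rose with a list median of 0.86. Isg20, an exonuclease, had signals of 83.0 and 71.0 before and 925 and 396 after 3 h (log2 fold change 2.75, SE 0.37, adjusted p = 0.0036), and Ifitm3, which blocks viral fusion, had 5071 and 6845 before and 10255 and 11362 after 3 h (log2 fold change 0.87, SE 0.16, adjusted p = 0.0238). Bst2, the tether of budding virus, was not called (1549 and 1967 before and 1937 and 2971 after 3 h, log2 fold change 0.46, SE 0.17, adjusted p = 0.51), nor was Aim2, a DNA sensor (log2 fold change 1.63, SE 0.37, adjusted p = 0.0922). Of 11 PARP genes, counted with the ligase Dtx3l, 4 rose, and the median was 0.19. The 4 were Parp14 (2.90 ± 0.20), Dtx3l (1.97 ± 0.17), Parp9 (1.79 ± 0.25) and Parp12 (1.48 ± 0.17). Of 19 TRIM genes, 5 rose, with Trim30d (2.17 ± 0.20) and Trim21, an antibody receptor in the cytosol (2.01 ± 0.37), ahead of Trim25 and the rest, and the median of the list was 0.38. Without each array in turn, 4 of the 10 restriction factors, 3 of the 4 PARP genes and 2 of the 5 TRIM genes were always called.

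Secreted proteins were among the genes that rose, with log2 fold changes from 1.52 for Il1a to 7.78 for Cxcl10. Of 12 inflammatory cytokines, 5 rose, Il6, Il12b, Il15, Il1b and Il1a, and the median was 1.11. Il1b had signals of 2912 and 2783 before and 10176 and 10797 after 3 h (log2 fold change 1.87, SE 0.33, adjusted p = 0.0207) and Il1a had 1499 and 2023 before and 4697 and 5394 after 3 h (log2 fold change 1.52, SE 0.27, adjusted p = 0.0248). Tnf, with signals of 3221 and 2715 before and 5245 and 4445 after 3 h, did not pass (log2 fold change 0.70, SE 0.24, adjusted p = 0.41), and neither did Il12a, the specific subunit of IL-12 (log2 fold change 1.75, SE 0.61, adjusted p = 0.453). Leaving out 1 array ended the call of Il12b, Il15, Il1b and Il1a for at least 1 of the 12 arrays, and with no term for the experiment none of the 5, Il6 included, was called. Of 9 CXC chemokines, 2 rose, Cxcl10 and Cxcl11, with a list median of 0.51. Cxcl11 had signals of 40.1 and 68.4 before and 803 and 432 after 3 h (log2 fold change 3.14, SE 0.40, adjusted p = 0.00256). Cxcl9, the related CXCR3 ligand, had signals of 7.06 and 6.78 before and 765 and 63.7 after 3 h, so that both experiments were higher at 3 h but to very different levels (log2 fold change 3.44, SE 0.78, adjusted p = 0.0917). Of 11 CC chemokines, 1 rose, Ccl5, and the median was 0.25. Ccl12, a monocyte chemokine, had signals of 96.2 and 12.9 before and 486 and 174 after 3 h (log2 fold change 2.44, SE 0.53, adjusted p = 0.0744). Ccl4, an attractant of T cells, had 5924 and 9699.8 before and 9442 and 14403 after 3 h, and its 0 h and 3 h signals overlapped. Of 8 chemokine receptors, 1 rose and the median was -0.00. It was Ccrl2, an atypical receptor, with signals of 489 and 628 before and 3628 and 2605 after 3 h (log2 fold change 2.44, SE 0.35, adjusted p = 0.0061). Ccr7, which guides mature DC to lymph nodes, had signals of 272 and 149 before and 891 and 175 after 3 h (log2 fold change 0.93, SE 0.53, adjusted p = 0.825).

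Some genes of surface maturation rose by 3 h. Of 14 genes listed with the co-stimulatory and checkpoint ligands, 3 rose, a larger share than the 1.26% of all genes tested, and the median was 0.71. They were the activation antigen Cd69, the receptor Cd40 and Cd274, the only ligand among them. Cd40, the receptor for T cell help, had signals of 336 and 152 before and 3419 and 1063 after 3 h (log2 fold change 2.98, SE 0.40, adjusted p = 0.0036). Cd274, the inhibitory ligand PD-L1, had 2683 and 4349 before and 9129 and 8023 after 3 h (log2 fold change 1.32, SE 0.20, adjusted p = 0.00961). Of the 3, 1 was called without each array in turn, and so was 1 of the 2 MHC class I genes given below. The ligands of CD28 were not called, with signals of 1139 and 933 before and 1491 and 1033 after 3 h for Cd86 and 368 and 429 before and 1115 and 609 after 3 h for Cd80, and neither was the maturation antigen Cd83 (log2 fold change 0.79, SE 0.30, adjusted p = 0.517). Of 13 TNF superfamily genes, 1 rose, which was again Cd40, with a list median of 0.64. Tnfsf10, the death ligand TRAIL, had a log2 fold change of 1.45 ± 0.52. Of 17 genes of MHC class I processing, 2 rose and the median was 0.20. The peptide transporter subunit Tap1 had signals of 1015 and 764 before and 3386 and 2101 after 3 h (log2 fold change 1.58, SE 0.15, adjusted p = 0.000314), and Nlrc5, the activator of class I genes, had 643 and 330.5 before and 2180.4 and 785 after 3 h (log2 fold change 1.47, SE 0.21, adjusted p = 0.00603). The immunoproteasome subunit Psmb9 had signals of 1326 and 1677 before and 2275 and 2597 after 3 h (log2 fold change 0.70, SE 0.16, adjusted p = 0.0922). None of 10 MHC class II genes was called, and their values ran from -0.06 to 0.36 with a median of 0.07. Of 17 endocytic and C-type lectin receptors, 1 rose and the median was 0.05. It was Clec4e, the receptor Mincle, with signals of 10995 and 9369.8 before and 21629.7 and 22732 after 3 h (log2 fold change 1.13, SE 0.17, adjusted p = 0.0068).

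**Figure D3:**
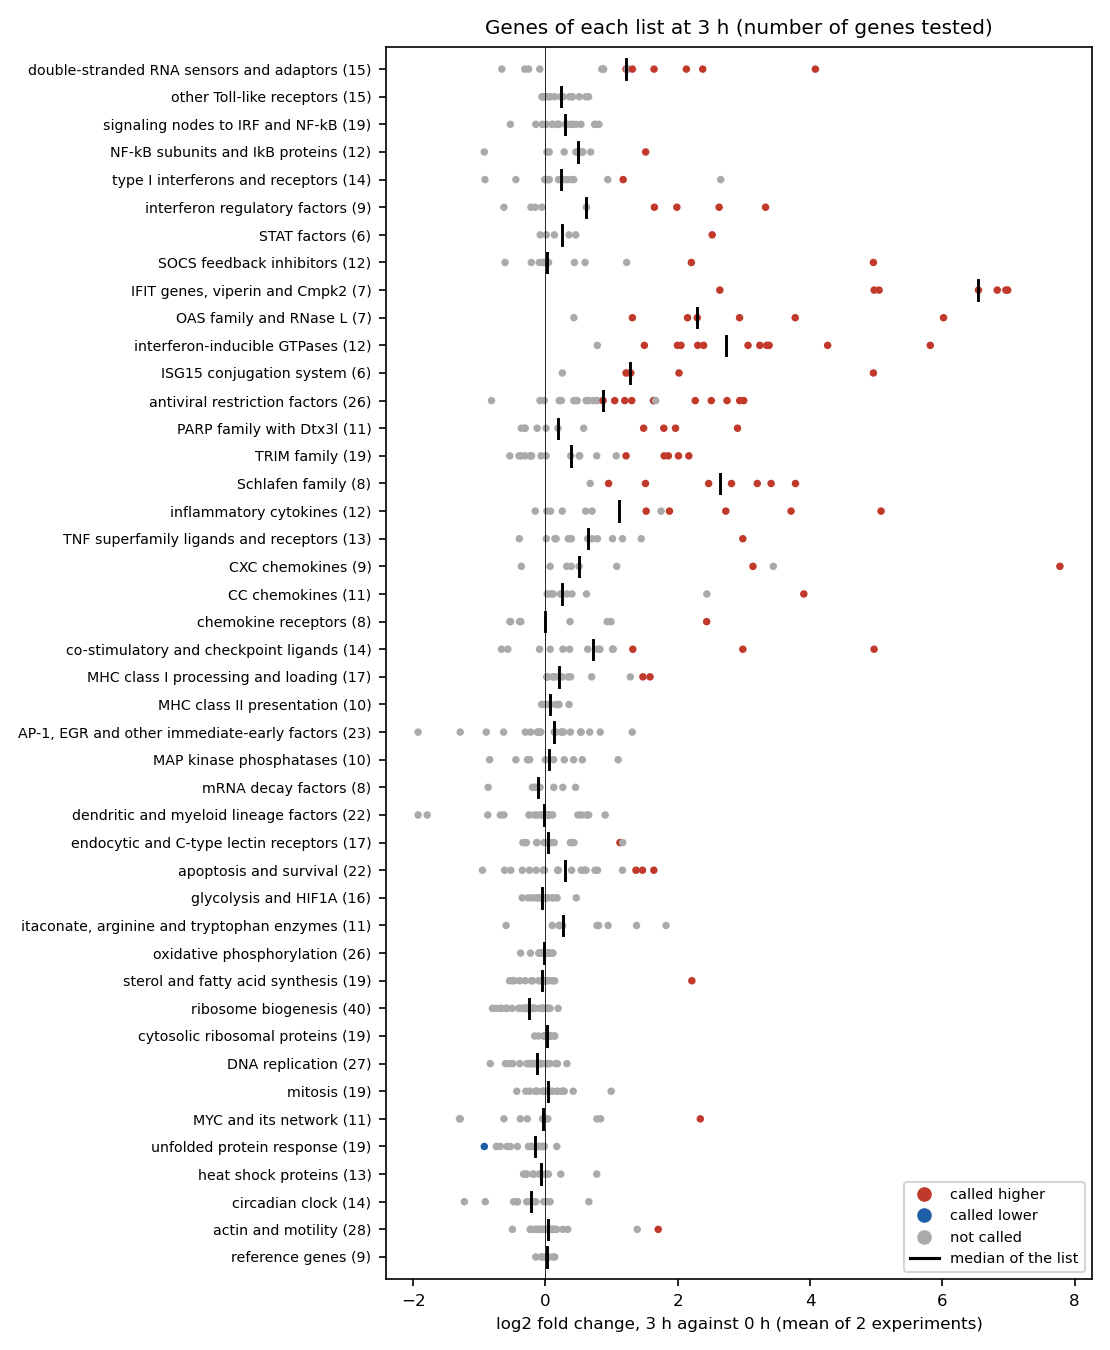
Log2 fold change at 3 h against 0 h (x axis) of every tested gene of the 44 lists, 1 point per gene, with the number tested in brackets; red, called higher; blue, called lower; grey, not called; black bar, median. The IFIT list, OAS genes, GTPases and Schlafen genes have medians of 2.29 to 6.55, and Herpud1, in the unfolded protein response, is the one blue point.

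Of the 138 genes, 52 were in none of the 44 lists, with a median log2 fold change of 1.75. Peli1, a ubiquitin ligase of Toll-like receptor signaling, had signals of 765 and 524 before and 6363 and 3644 after 3 h (log2 fold change 2.89, SE 0.16, adjusted p = 7.44e-06). Serpinb2, an inhibitor of plasminogen activators, had signals of 1747 and 1779 before and 10264 and 10937 after 3 h (log2 fold change 2.58, SE 0.36, adjusted p = 0.00457). Mir155hg, the host transcript of a microRNA of immune activation, differed in level between the experiments at both times, with log2 ratios of 2.57 and 2.24 and signals of 202 and 32.2 before and 1279 and 211 after 3 h (log2 fold change 2.41, SE 0.26, adjusted p = 0.000807). Klrk1, which encodes the receptor NKG2D and stood here among the NK cell markers, had signals of 107 and 50.2 before and 289.7 and 171 after 3 h (log2 fold change 1.4, SE 0.25, adjusted p = 0.0244), while Prf1, the other NK cell marker tested, was not called. Tiparp and Ahrr, known targets of the aryl hydrocarbon receptor, had log2 fold changes of 1.49 ± 0.18 and 0.95 ± 0.18. Pnp, a purine salvage enzyme, had signals of 8677 and 10568 before and 19496 and 22642 after 3 h (log2 fold change 1.13, SE 0.14, adjusted p = 0.00164). Cdkn1a, the cell cycle inhibitor p21, had 4899 and 5824 before and 15568 and 11767 after 3 h (log2 fold change 1.34, SE 0.21, adjusted p = 0.0124). These genes were chosen from the 52 after their values were seen.

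Some other lists held 1 or 3 genes that rose, where 1.26% of all genes tested rose. A single call is too few to set a list apart from that share. Mxd1, which competes with MYC for its partner MAX, had signals of 147 and 214 before and 1072 and 870.2 after 3 h (log2 fold change 2.34, SE 0.31, adjusted p = 0.00305) and was the 1 call of 11 genes of the MYC network, whose median was -0.04. Ch25h, which makes 25-hydroxycholesterol, had 788 and 1253 before and 5164 and 4219 after 3 h (log2 fold change 2.21, SE 0.29, adjusted p = 0.00278) and was the 1 call of 19 genes of sterol and fatty acid synthesis, whose median was -0.06. Marcksl1, an actin-binding protein, was the 1 call of 28 genes of actin and motility (log2 fold change 1.70, SE 0.21, adjusted p = 0.00194), whose median was 0.04. Of 22 genes of apoptosis and survival, 3 rose, 0 of which were called without each array in turn, and the median was 0.29. They were Daxx (1.64 ± 0.23), Cflar, an inhibitor of caspase-8 (1.47 ± 0.17), and Casp4, the caspase that senses cytosolic lipopolysaccharide (1.37 ± 0.27). The death receptor Fas was not called (log2 fold change 1.17, SE 0.45, adjusted p = 0.556).

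Many of the genes that rose lie beside each other in the genome. When the 10954 genes tested that have a place in the RefSeq annotation were set in chromosome order, 46 of the 138 (33.3%) stood next to another gene that rose, while 2.33% of all genes placed stood next to one. The 46 form 18 runs, 6 of them of at least 3 genes. The longest, on chromosome 19, holds Ifit2, Ifit3, Ifit1bl1, Ifit1bl2 and Ifit1. On chromosome 1, Ifi209, Ifi207, Ifi204 and Mndal form another, and C130026I21Rik, Sp110 and Sp100 a further one. On chromosome 11 there are Slfn2, Slfn1, Slfn4 and Slfn3, and then Slfn5, Slfn9 and Slfn8. On chromosome 16 there are Parp14, Dtx3l and Parp9. Neighbours such as these are often copies of 1 ancestral gene, and probe sets whose names end in _x_at or _s_at, which read 8 and 4 of the 138 genes, can bind more than 1 of the copies. Gm9706 and Sp110 are read by such probe sets.

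The falls were few, and 4 of the 6 were at least 2-fold. Fcsk, the fucose salvage kinase, had the largest, with signals of 158 and 169 before and 16 and 14.1 after 3 h (log2 fold change -2.53, SE 0.47, adjusted p = 0.0313). Its 3 h signals lay near the added constant of 16. It has 2 other probe sets with log2 fold changes of 0.35 and -0.60, which were not called. Fcsk and Nme1, given below, are read by probe sets ending in _x_at, which can bind more than 1 gene copy. The uncharacterised gene 2410002F23Rik had signals of 663 and 449 before and 211 and 148 after 3 h (log2 fold change -1.54, SE 0.30, adjusted p = 0.038). Ppargc1b, a coactivator of mitochondrial biogenesis, had 1475 and 1194 before and 597 and 625 after 3 h (log2 fold change -1.10, SE 0.20, adjusted p = 0.0261). Nme1, a nucleoside diphosphate kinase, had 6775 and 11489.8 before and 2756 and 5899 after 3 h (log2 fold change -1.13, SE 0.21, adjusted p = 0.0285). The fall was seen in each experiment but the brighter 3 h signal lay close below the dimmer 0 h signal, and the other probe set of Nme1 had a log2 fold change of -0.13. Slc35f6 had 2312 and 2222 before and 1142 and 1185 after 3 h (log2 fold change -0.95, SE 0.18, adjusted p = 0.0344). Herpud1, a component of endoplasmic reticulum protein degradation, had 2573 and 2532 before and 1131 and 1580.5 after 3 h (log2 fold change -0.92, SE 0.18, adjusted p = 0.046). In all 6 genes, which were called on these same arrays, both 3 h signals were below both 0 h signals. However, none of the 6 was called without either 0 h array, without either 1 h array or without the 3 h array of experiment 1. The count of lower probe sets was 0 without either 0 h array, 2 and 3 without the 3 h arrays, 3 without either 1 h array, 5 and 4 without the 6 h arrays, and 82 and 79 without the 24 h arrays. With no term for the experiment it was 0, with 190 at an unadjusted p under 0.05.

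**Figure D4:**
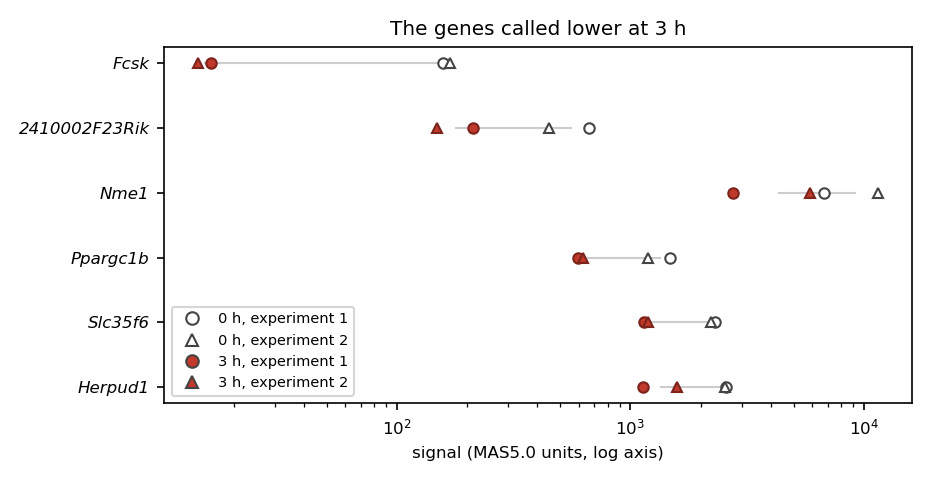
Signal (log axis, MAS5.0 units) of the 6 genes called lower at 3 h; open symbols, 0 h; red symbols, 3 h; circles, experiment 1; triangles, experiment 2; grey lines join the means. Both red symbols lie to the left of both open ones in each row, furthest for Fcsk.

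Further groups held genes that were lower or higher at 3 h in both experiments without passing the test. Herpud1 was the 1 call of 19 genes of the unfolded protein response, of which 13 were below 0 in both experiments and 0 above, with a median of -0.15. Its sensors Ern1 and Eif2ak3 had log2 fold changes of -0.74 ± 0.27 and -0.68 ± 0.26. Of 40 ribosome biogenesis genes, 0 passed, 29 were below 0 in both experiments and 4 above, and the median was -0.24. Of all genes tested, 4700 of 10985 were below 0 in both experiments and 2736 above. Among 23 immediate-early factors, 0 passed and the median was 0.13. The members given here, Myc, Klf4, Nr4a3 and Mafk, lay at the low and high ends of the log2 fold changes of this list. Myc had signals of 781 and 727 before and 288 and 310.2 after 3 h (log2 fold change -1.29, SE 0.35, adjusted p = 0.205). Klf4 had 1922 and 3010.1 before and 494 and 781 after 3 h (log2 fold change -1.92, SE 0.67, adjusted p = 0.443). In the same list Nr4a3 had 734 and 297 before and 2673 and 523 after 3 h (log2 fold change 1.31, SE 0.34, adjusted p = 0.17) and Mafk had 695 and 497 before and 1278 and 872 after 3 h (log2 fold change 0.83, SE 0.21, adjusted p = 0.15). The MYC antagonist Mnt had 1087 and 763 before and 366 and 356 after 3 h (log2 fold change -1.30, SE 0.29, adjusted p = 0.0841). In the circadian clock, 0 of 14 genes passed, with a median of -0.22, and Per1 had signals of 278 and 286 before and 102 and 122 after 3 h (log2 fold change -1.23, SE 0.25, adjusted p = 0.0548).

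No gene was called in the lists of lineage factors and of basic metabolism named here. Of all genes tested, 1.26% rose and 0.0546% fell, so 0 calls in a list of this size does not set it apart. None of 22 DC and myeloid lineage factors passed, with a median of -0.02, and Irf8, the factor of cross-presenting DC, had signals of 1105 and 1518 before and 2362 and 1689 after 3 h (log2 fold change 0.62, SE 0.49, adjusted p = 0.93). None passed of 16 genes of glycolysis, 26 of oxidative phosphorylation, 19 cytosolic ribosomal proteins, 27 of DNA replication, 19 of mitosis, 13 heat shock proteins, 10 MAP kinase phosphatases, 8 mRNA decay factors and 9 reference genes. Their medians lay between -0.13 and 0.06. Of 11 enzymes of itaconate, arginine, tryptophan and prostaglandin metabolism, 0 passed, with a median of 0.26. Acod1, which makes itaconate, had signals of 16539 and 10573 before and 23664 and 27487 after 3 h (log2 fold change 0.95, SE 0.22, adjusted p = 0.0965). Ptgs2, the inducible cyclooxygenase, differed between the experiments, with 90.5 and 26.5 before and 709 and 62.2 after 3 h (log2 fold change 1.82, SE 0.65, adjusted p = 0.469).

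Most of the genes that rose by 3 h were also higher at 3 h than at 1 h. By the same limma fit, 110 genes were higher at 3 h than at 1 h (1.00% of those tested) and 7 were lower (0.0637%). Of the 138 genes called against 0 h, 102 were also called higher than at 1 h, and both comparisons use the same 3 h arrays, on which the 138 were chosen as high. Their median log2 fold change against 0 h was 0.19 at 1 h, 2.09 at 3 h and 2.81 at 6 h, and these values share the 0 h arrays. Cxcl10 was partly up at 1 h, with signals of 96.8 and 61.3 before, 1988 and 1424 after 1 h and 20569 and 20371 after 3 h. Usp18 was not called at 1 h and had signals of 238 and 223 before, 331 and 252 after 1 h and 8225 and 7108 after 3 h. Irf7 was not called at 1 h either, where its log2 fold change was -0.41. Ifih1 had 613 and 559 before, 1479.8 and 874 after 1 h and 12873 and 8008 after 3 h. Of the 138 genes, 4 had a larger fold change at 1 h than at 3 h and 127 had a larger one at 6 h. Among probe sets, 194 were higher at 3 h than at 1 h and 15 lower. The first count was from 83 (3 h, experiment 1) to 118 without any 1 of the 1 h and 3 h arrays, and 325 and 329 without the 24 h arrays. The second was 0 and 1 without the 1 h arrays, 4 and 1 without the 3 h arrays, 7 and 8 without the 0 h arrays, 9 and 8 without the 6 h arrays and 78 and 80 without the 24 h arrays.

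Of the 7 genes that were lower at 3 h than at 1 h, 3 had been called higher at 1 h than before, Cxcl1, Tnfsf9 and Nfkbiz. Both comparisons use the same 1 h arrays, so this overlap follows in part from the choice of the 7 genes. Cxcl1, a chemokine for neutrophils, had signals of 789 and 443 before, 6359 and 2733 after 1 h and 1281 and 560.3 after 3 h (log2 difference -2.28, SE 0.29, adjusted p = 0.00276). Tnfsf9, the ligand of 4-1BB, had 133 and 373 before, 1345 and 1661 after 1 h and 334 and 659 after 3 h (log2 difference -1.64, SE 0.27, adjusted p = 0.0171). Nfkbiz had 376 and 205 before, 3884 and 1626 after 1 h and 1316 and 515 after 3 h (log2 difference -1.59, SE 0.22, adjusted p = 0.0054), which at 3 h was still above 0 h. Gadd45a, a stress-response gene, had 472 and 454 before, 737 and 1108 after 1 h and 247 and 293 after 3 h (log2 difference -1.69, SE 0.31, adjusted p = 0.031). Both of its 3 h signals were below those at 0 h too, but it was not called against 0 h. Phlda1 had 3458 and 2844 before, 8055 and 4744 after 1 h and 3687 and 1886 after 3 h (log2 difference -1.22, SE 0.24, adjusted p = 0.0423). For 2410002F23Rik (log2 difference -1.67, SE 0.30, adjusted p = 0.0267) and Herpud1 (log2 difference -0.95, SE 0.18, adjusted p = 0.0444) the 1 h signals lay near those at 0 h. Il6 was not ordered the same way in both experiments between 1 and 3 h, with signals of 49.9 and 5.23 before, 2276 and 1014 after 1 h and 2969.8 and 515 after 3 h. Ifnb1 had 32.6 and 48.4 before, 550.3 and 168 after 1 h, 522 and 213 after 3 h and 4588 and 1875 after 6 h.

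**Figure D5:**
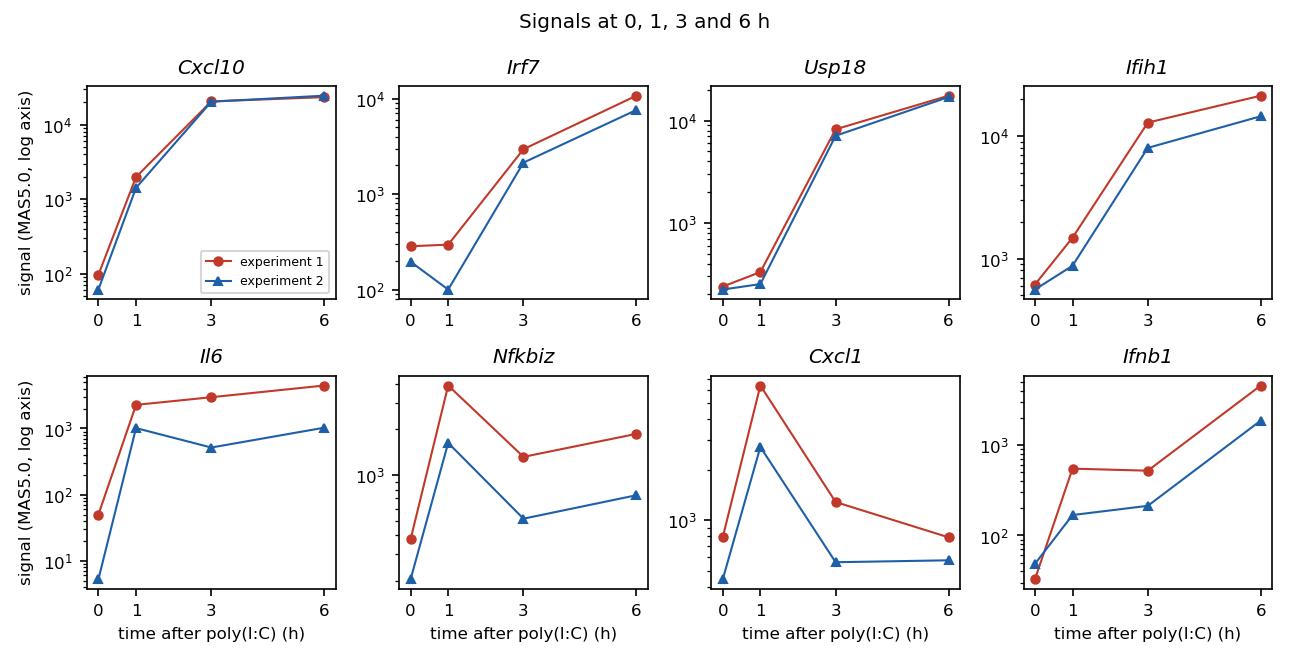
Signal (log axis, MAS5.0 units) at 0, 1, 3 and 6 h of 8 genes; red circles, experiment 1; blue triangles, experiment 2. Irf7 and Usp18 leave their 0 h level between 1 and 3 h, Nfkbiz and Cxcl1 peak at 1 h, and Ifnb1 has its highest signals at 6 h.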

How the data were processed

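Transcripts were measured on 12 Affymetrix Mouse 430 2.0 arrays, 1 per time (0, 1, 3, 6, 12 and 24 h) in each of 2 experiments. The authors made the deposited intensity values with MAS5.0, which yields 1 signal per probe set and scales each array, here to a trimmed mean of 500 with 2% cut at each end. Change calls, their p-values and signal log ratios in the same tables hold comparisons made by the authors and were not used. The deposited table has 45101 probe sets, of which 64 controls were left out. Of the rest, 34945 had 1 gene symbol in the platform annotation, 932 several and 9160 none, and only those with 1 were named.

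Signals were analysed as log2(signal + 16) over the probe sets with a mean signal at or above the median of 78.4. A linear model with terms for time and experiment was fitted to all 12 arrays with limma 3.58.1 in R 4.3.3, with an intensity trend in the prior variance and Benjamini-Hochberg adjustment over the 22519 probe sets tested. It had 5 residual and 5.24 prior degrees of freedom. The experiment was a term because all the arrays of 1 experiment came from 1 mouse, as the study's methods state. Deviations of same-numbered arrays correlated at 0.26 to 0.66 (median 0.57) over the 15 pairs of times. The p-values rest on the spread left over all 12 arrays after the terms for time and experiment, drawn towards that of other probe sets. That spread comes from these 2 experiments only. A gene was represented by its probe set of highest mean signal. The comparison and the 44 gene lists and 9 cell marker lists were chosen with earlier results of these data known. Genes were named mainly as the 25 largest rises, all falls, up to 5 called members per list by adjusted p and up to 3 members that did not pass. Some lists exceed these limits, and not every exception is marked. Tables were made with Python 3.11.15, numpy 2.4.6 and pandas 2.3.3, and figures with matplotlib 3.10.9. The fit was tested on simulated data. Alternatives were another pseudocount, filter, scaling or variance model, no term for experiment, fewer times, and each array left out. A few named items are not reported here.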

Additional observations from a re-analysis of the deposited data

How the results depend on the processing

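The direction of all 138 rises and 6 falls was kept under every alternative that gave them a value, while the counts moved. With no replicate block, 88 probe sets were higher at 3 h than at 0 h and 0 lower, and 82 and 0 against 1 h (limma, with 190 and 192 lower at an unadjusted p under 0.05). Of the 138 genes, 55 were called under every alternative that kept all times and arrays or only 0 to 6 h, and 59 without each array in turn. With the 0 to 6 h arrays alone, 550 were higher and 217 lower than at 0 h, and 430 and 232 than at 1 h. With only the arrays of both times compared, these counts were 991, 922, 827 and 759. Fewer than the main 10 were lower than at 0 h with no filter (6) or no intensity trend (4), and more with arrays centred on their median (16). Against 1 h, 124 were higher with no intensity trend, and 9 lower with no filter and 23 with a pseudocount of 64. Leaving out 1 array gave 98 to 431 higher and 0 to 82 lower than at 0 h, and 83 to 329 and 0 to 80 against 1 h. Of values that did not pass, Irf8 ran from -0.082 (without the 0 h array of experiment 1) to 1.32, Ccr7 from -0.086 (without the same array) to 1.95, and Irf3 from -0.37 to 0.03 and 0.058 (without the 0 h array of experiment 2 and the 3 h array of experiment 1). The cause of these shifts was not tested. Signals below 16 on the array limit what can be read of genes that were dim at 0 h.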
